A study of Mus musculus with 4 samples.

Results

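The genes described here encode solute carriers: 120 genes measured on all 4 arrays, of 198 on the platform, out of 6327 genes measured in all. Solute carriers are the membrane proteins that move amino acids, ions, metals, sugars, nucleotides and organic acids into cells and between their compartments. Their genes carry the prefix Slc, a number for the sequence family, and a letter and number for the member. Most are secondary transporters or facilitators that use existing gradients and not ATP; the Slc25 family sits mainly in the inner mitochondrial membrane. In growing fibroblasts they supply the amino acids, phosphate, choline and metals that proliferation consumes.

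The series compared NIH3T3 cells, an established mouse embryonic fibroblast line, with an NIH3T3 line transfected with Erbb2 and overexpressing it. Erbb2 is a growth factor receptor gene and a known oncogene. Each of 4 arrays held RNA of both lines in different colours, with the transfected sample in Cy5 on arrays 1 and 2 and in Cy3 on arrays 3 and 4. The series calls these arrays technical replicates, so each line is 1 sample, and the errors and p-values below cover the spread between arrays only. The sources used here name neither the vector nor the number of clones, and part of the protocol text speaks of organs and animals, which a cell line does not have. Values are log2 ratios; the likely but unstated direction is transfected over untransfected, and all signs would turn together if it were the reverse. In bulk RNA, less RNA per cell and fewer cells that make it cannot be told apart.

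The members were all genes whose platform symbol is Slc followed by digits, letters and digits, with Slc16a3 left out by the rule. They had 264 spots. The 78 that were not measured comprised 10 genes with no probe in the rows used and 68 without a value on at least 1 array. Among those 68 were Slc1a5 and Slc38a2, which carry glutamine and other neutral amino acids, and the lactate carrier gene Slc16a1. Arrays 2 to 4 were read 3 or 4 rows above array 1 in the lower part of the table, because only then did array 1 correlate with the others. Of the measured members, 42 had probes only in the rows that needed no such move, 65 only in moved rows and 13 in both. Of the fibroblast markers, 8 of 10 were measured, 4 with a mean below 0 and 4 above (median -0.06). Col1a1, Col1a2 and Fn1 were lower at an unadjusted p under 0.05 in limma, while Vim (0.66), Col3a1 (0.89), Pdgfra (0.45) and S100a4 (0.24) had means above 0. The epithelial markers did not move together: Cldn3 had 0.86 ± 1.0, with -0.40 on array 2 (unadjusted p = 0.043), Krt8 0.35, and Epcam -0.52, below 0 on all 4 arrays. Of the leukocyte, endothelial and adipocyte markers, the macrophage gene Lyz2 alone had such a p (-1.17 ± 0.70). Ratios of both lines hold no level, so whether any marker was present, and its part in the values below, was not tested.

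No solute carrier gene passed the test. With limma, 0 of the 120 genes were called at an adjusted p under 0.05, with 0.00% called among all genes, and the smallest adjusted p of a member was 0.274, for the choline transporter gene Slc44a1. At an unadjusted p under 0.05 there were 15 members (12.5%), against 11.5% of all genes. That share was near the background. Of the 15, 13 were lower in the transfected line (10.8% of the members, against 7.49% of all genes) and 2 were higher (1.67%, against 4.05%). With arrays scaled to a common spread, 9 were lower (7.5%, against 6.99% of all genes) and 3 higher (2.5%, against 4.96%). The count of 15 was 7 without array 2, 9 without array 3 and 24 without array 4; all genes then stood at 5.2%, 8.93% and 15.6%.

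Signs and sizes gave a similar picture. Below 0 on all 4 arrays were 20 members (16.7%), against 13.0% of all genes, and above 0 on all 4 were 6 (5.00%), against 9.58%. A mean of -1 or lower, a level lower by at least 2-fold, was seen for 12 members (10.0%, against 7.70% of all genes). A mean of 1 or higher was seen for 3 (2.50%, against 3.87%): Slc6a6, Slc30a6 and the sodium-glucose cotransporter gene Slc5a1, the last named after its values were seen. A mean below 0 was seen for 71 (59.2%, against 56.1%). The median of the 120 means was -0.116, close to the median of -0.082 over all genes. On arrays 1 to 4 the members' medians were -0.03, -0.02, -0.36 and -0.31, and those of all genes 0.1, -0.01, -0.14 and -0.16. Both sets thus lay lower on arrays 3 and 4 than on arrays 1 and 2.

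**Figure D1:**
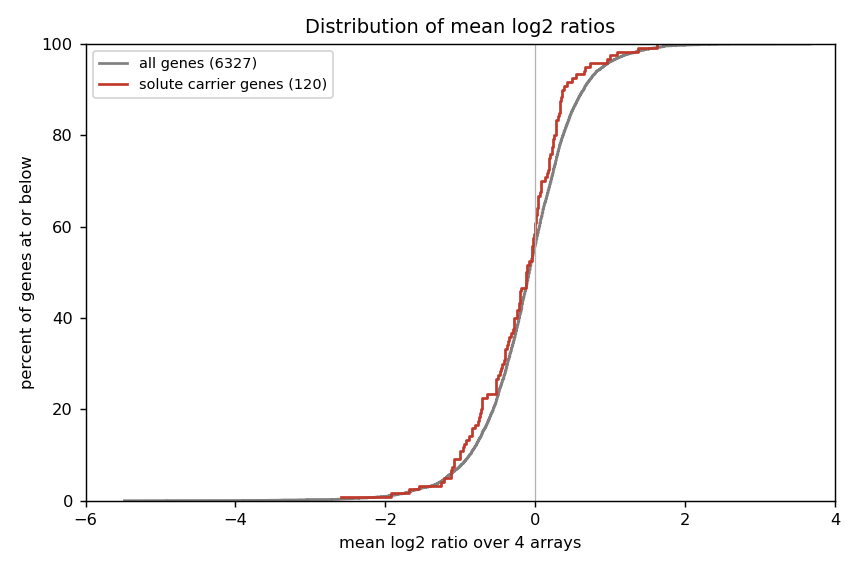
Share of genes (percent, vertical axis) at or below each mean log2 ratio over 4 arrays (horizontal axis), for the 120 solute carrier genes (red) and for all 6327 genes measured (grey). The medians are -0.116 and -0.082, and the members reach from -2.59 to 1.62 while all genes reach from -5.48 to 3.67.

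Amino acid carriers are grouped here as Slc1, Slc3, Slc7, Slc36, Slc38 and Slc43. Of 18 measured genes, 9 had a mean below 0, which held for 56.1% of all genes, and 9 above. The family median was 0.0. At an unadjusted p under 0.05 in limma, 2 were lower and 0 higher, against 7.49% and 4.05% of all genes. When adjusted over all genes 0 passed. Slc1a3 encodes a plasma membrane transporter of glutamate and aspartate. Its log2 ratios on arrays 1 to 4 were -0.72, -2.09, -2.94 and -1.94. All lay below 0, with array 1 nearest to it. The mean was -1.92 ± 0.91 (SD over 4 arrays), a 3.79-fold lower level (limma, unadjusted p = 0.00335, adjusted p = 0.294).

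Slc7a5, the light chain of the main exchanger of large neutral amino acids, had -1.68, -1.60, -1.09 and -0.53 on arrays 1 to 4. It was lower on every array, and more so on the arrays with the transfected sample in Cy5 (mean -1.64) than in Cy3 (-0.81). The mean was -1.22 ± 0.53, 2.34-fold lower (limma, unadjusted p = 0.00714, adjusted p = 0.32). Slc3a2, which encodes the heavy chain that brings this light chain to the membrane, was looked up after its values were seen. It had -0.24, -3.23, 0.06 and 1.30 on arrays 1 to 4, with signs that disagreed. Its mean of -0.53 had an unadjusted p of 0.396 in limma.

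Slc38a4, a neutral amino acid transporter gene named after its values were seen, was the remaining family member below 0 on all 4 arrays. It had -0.24, -0.28, -1.85 and -0.46, with array 3 far below the others (limma, unadjusted p = 0.0952). The amino acid carriers named next had means closer to 0 or signs that differed between arrays. The glutamate transporter genes Slc1a1 and Slc1a2, each with 4 probes in the rows used, had means of -0.37 ± 0.62 and 0.35 ± 0.56. The neutral amino acid transporter gene Slc1a4 had 0.19 ± 0.39, Slc7a6, another light chain, 0.03 ± 0.34, and the heavy chain gene Slc3a1, -0.01 ± 0.79. Each of these SDs exceeded the size of its mean, and the probe of Slc3a1 measured on all 4 arrays had 0.61. The proton-coupled amino acid transporter genes Slc36a1 and Slc36a3 had -0.46 ± 0.59 and -0.52 ± 0.74, and their fully measured probes had 0.09 and -0.94. Without array 3 the mean of Slc36a1 was -0.12, and without array 2 that of Slc36a3 was -0.26. Here and below, a mean without 1 array is limma's estimate with the dye term. It weighs both dye orientations equally and is not the plain mean of the arrays left. The highest mean of the family, 0.65 ± 2.09, belonged to Slc36a2 and came from array 4 (3.67); its other arrays lay between -0.90 and 0.41, and the mean was -0.49 without array 4. Slc38a9, a lysosomal arginine sensor of the mTORC1 pathway, had 0.94 and 1.63 on arrays 1 and 2 and -0.48 and -1.01 on arrays 3 and 4. The signs turned with the dye (limma, unadjusted p of the dye term 0.0194), but arrays 2 and 3 average a second probe; the probe with a value on all 4 arrays had 0.94, -0.84, 1.70 and -1.01, which did not.

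The mitochondrial carriers of the Slc25 family pass metabolites, nucleotides and phosphate across the inner membrane. Of 19 measured, 14 had a mean below 0, which held for 56.1% of all genes, and 5 above. The family median was -0.29. At an unadjusted p under 0.05 in limma, 3 were lower and 0 higher, against 7.49% and 4.05% of all genes. After adjustment over all genes 0 passed. Slc25a12 and Slc25a13 encode the aspartate-glutamate carriers, which are regulated by calcium and belong to the malate-aspartate shuttle that brings cytosolic reducing equivalents to the respiratory chain.

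The stretches just before the outermost annotated starts of these 3 genes are shown because their products share substrates and all had ratios below 0 on all 4 arrays. They were chosen after the values were seen. Each is 100 bases of RefSeq's mouse build GRCm38.p6, minus strand, 5′ to 3′: chr15:8710808-8710907 for Slc1a3, chr2:71367782-71367881 for Slc25a12 and chr6:6217305-6217404 for Slc25a13. Capitals mark matches to any of 4 motifs searched on both strands.
Slc1a3: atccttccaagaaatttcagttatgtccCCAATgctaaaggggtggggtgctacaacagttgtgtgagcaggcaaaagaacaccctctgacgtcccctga
Slc25a12: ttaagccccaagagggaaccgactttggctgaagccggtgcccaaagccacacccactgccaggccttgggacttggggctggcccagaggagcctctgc
Slc25a13: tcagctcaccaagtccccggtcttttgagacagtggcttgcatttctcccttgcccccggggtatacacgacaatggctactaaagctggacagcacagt
The motifs were the GC box (GGGCGG), the CCAAT box (CCAAT), the E-box (CACGTG) and the AP-1 site (TGANTCA), none of which contains another. Slc1a3 held 1 CCAAT box, and no other match was found in these letters. Of 23203 annotated genes with such a stretch, 22.6% held a GC box, 19.9% a CCAAT box, 3.04% an E-box and 2.76% an AP-1 site. Of 69 members with such a stretch, the shares were 42.0%, 23.2%, 10.1% and 1.45% in the same order, given as a description with no test. The 69 are genes measured on the arrays and the 23203 are not limited to such genes, so these sets are unlike. A match is a description of the letters only, and the arrays hold no measurement of binding.

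Slc25a13 had the lowest mean of all measured members. Its log2 ratios were -4.92, -0.16, -2.07 and -3.20 on arrays 1 to 4, below 0 throughout but close to it on array 2. The mean was -2.59 ± 2.00, 6.01-fold lower (limma, unadjusted p = 0.0219, adjusted p = 0.384). Limma's estimate with both dye orientations weighed equally was -1.40 without array 1 and -3.78 without array 2. The size of the mean thus rests on single arrays. Slc25a12 varied less, with -1.51, -0.85, -1.09 and -0.54. Its mean was -1.0 ± 0.41, 2-fold lower (limma, unadjusted p = 0.0203, adjusted p = 0.382).

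Slc25a30, a kidney mitochondrial carrier, had -1.07, -0.63, -1.67 and -0.29 on arrays 1 to 4, with a mean of -0.92 ± 0.60 (limma, unadjusted p = 0.0461, adjusted p = 0.429). Without array 3 the mean was -0.57 (limma, unadjusted p = 0.184), and without array 1 or array 2 the p was 0.165 and 0.0948. Slc25a5, the only further member of the family below 0 on all 4 arrays, encodes an ADP/ATP carrier and was named after its values were seen. Its values were -0.18, -1.25, -0.61 and -0.80 (limma, unadjusted p = 0.0752). At the other end, 2 genes were above 0 on all 4 arrays. Slc25a46, measured by 3 probes, had 0.68, 0.31, 0.82 and 0.35, and Slc25a25, an ATP-magnesium/phosphate carrier gene named after its values were seen, had 0.49, 0.06, 0.50 and 0.33. Neither passed at an unadjusted p under 0.05 in limma (0.117 and 0.273).

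Several Slc25 genes were decided by 1 or 2 arrays. The phosphate carrier gene Slc25a3 had the family's highest mean, 0.73 ± 1.77, from a value of 3.28 on array 2 with the others between -0.82 and 0.24, and had -0.03 without array 2. The dicarboxylate carrier gene Slc25a10 had -0.97 ± 1.83, with 1.02 on array 2 and -3.43 on array 3. Its mean was -0.31 without array 3, and its 2 probes stood at -4.06 and 2.53 on array 4; the fully measured one had a mean of -1.73. Slc25a33, a pyrimidine nucleotide carrier gene, had -0.47 ± 0.33, and its array 1 stood at 0.01. The means of Slc25a23, Slc25a51, Slc25a44 and Slc25a35 lay between -0.41 and 0.03, each smaller in size than its SD; the fully measured probe of Slc25a35, an uncharacterised carrier gene, had -0.31.

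**Figure D2:**
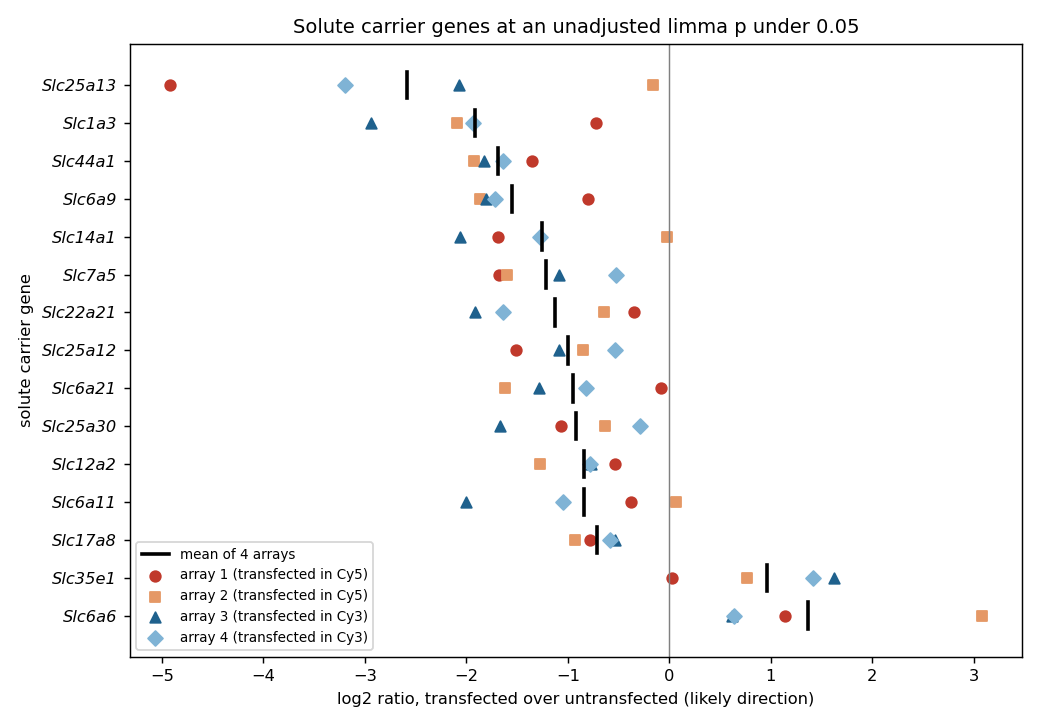
Log2 ratio of transfected over untransfected cells (horizontal axis, likely direction) on each of 4 arrays for the 15 solute carrier genes at an unadjusted limma p under 0.05 (vertical axis); symbols mark the arrays and black bars their mean. Most genes have all symbols on 1 side of 0, Slc6a11 crosses it at 0.07 on array 2, and Slc25a13 spreads from -4.92 to -0.16.

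Carriers of inorganic ions set cell volume, pH, calcium and phosphate supply. Of 16 measured, 10 had a mean below 0, which held for 56.1% of all genes, and 6 above. The family median was -0.12. At an unadjusted p under 0.05 in limma 1 was lower and 0 higher, against 7.49% and 4.05% of all genes. After adjustment over all genes 0 passed. Slc12a2, which encodes a sodium-potassium-chloride cotransporter, had -0.54, -1.27, -0.77 and -0.78 on arrays 1 to 4. All 4 values were negative and close together. The mean was -0.84 ± 0.31, 1.79-fold lower (limma, unadjusted p = 0.0345, adjusted p = 0.416). Whichever array was left out, the unadjusted limma p rose above 0.05 (from 0.0545 to 0.165). Slc12a4, a potassium-chloride cotransporter gene named after its values were seen, was the other ion carrier gene below 0 on all 4 arrays, at -0.46, -0.02, -0.52 and -0.70 (limma, unadjusted p = 0.191).

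The only ion carrier gene above 0 on every array was Slc20a2, which encodes a sodium-phosphate cotransporter. Its values were 0.41, 0.39, 0.86 and 0.29, with a mean of 0.49 ± 0.25 (limma, unadjusted p = 0.147). The sodium-proton exchanger genes had wide spreads. Slc9b2 had the family's lowest mean, -1.08 ± 1.61, mostly from array 3 (-3.39). It was -0.48 without that array, and its 2 probes had means of -0.27 and -1.89. Slc9a2 had -0.72 ± 1.31, or -0.14 without array 2, and the Golgi exchanger gene Slc9a8 -0.53 ± 2.35, or 0.53 without array 3. The spread of Slc9a2 comes partly from a probe with values on arrays 1 and 2 only (3.11 and -1.72). Its fully measured probe had -0.76, -0.60, -1.82 and -1.09 on arrays 1 to 4, with a mean of -1.07. The sodium-calcium exchanger gene Slc8a2 had -0.03 ± 1.41, and 0.84 for its probe with a value on all 4 arrays. Slc24a3, a potassium-dependent exchanger gene of the same ions, had 1.11 and 2.52 on arrays 1 and 2 and -0.06 and -2.06 on arrays 3 and 4, falling from 1 dye orientation to the other (limma, unadjusted p of the dye term 0.0258). Slc24a3 and Slc38a9 were the 2 members (1.67%) with such a p under 0.05, against 5.31% of all genes. For both genes, 1 of 2 probes had values on 2 arrays only, so that their arrays average different probes; the fully measured probe of Slc24a3 had 1.11, 2.52, 1.27 and -0.67.

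**Figure D3:**
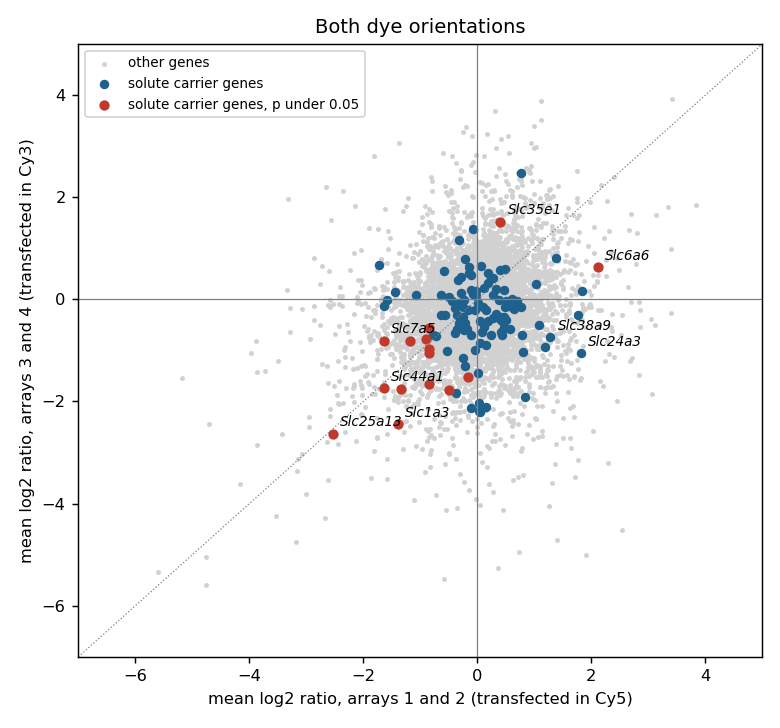
Mean log2 ratio with the transfected sample in Cy3 (arrays 3 and 4, vertical axis) against that in Cy5 (arrays 1 and 2, horizontal axis) for solute carrier genes (blue, red where the unadjusted limma p was under 0.05) and other genes (grey); the dotted line marks equal values. Slc44a1 (-1.64 and -1.74) and Slc25a13 (-2.54 and -2.63) lie near that line, and Slc24a3 (1.82 and -1.06) far from it.

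Metal carriers move zinc, copper, iron, manganese and magnesium. Of 9 measured, 5 had a mean below 0, which held for 56.1% of all genes, and 4 above. The family median was -0.02. Limma gave 0 at an unadjusted p under 0.05, against 11.5% of all genes. Slc31a1, the high-affinity copper importer gene, was the only one below 0 on every array, at -0.36, -0.35, -0.44 and -0.17. These values average 2 probes and hardly differed between arrays, and the mean of -0.33 ± 0.12 was small (limma, unadjusted p = 0.284). On arrays 1 to 4 the first probe had -0.29, -1.30, 0.0 and -0.42. The second had -0.44, 0.60, -0.88 and 0.08. Neither probe alone was steady or below 0 on every array, so the small SD holds for their average only. Slc30a6, which encodes a zinc transporter of the Golgi, had 0.85, 0.69, 4.48 and 0.46. All were above 0, but the mean of 1.62 ± 1.91 came mostly from array 3, without which it was 0.61 (limma, unadjusted p = 0.0606 with all arrays). The zinc importer genes Slc39a3 and Slc39a10 had -0.44 ± 0.68 (-0.09 without array 3) and -0.20 ± 1.03, and the iron and manganese importer gene Slc11a2 had 0.27 ± 0.48.

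Genes that store and handle metals, which are no solute carriers, were listed separately; 10 of 16 were measured, with a median of -0.69. Of these, 8 had a mean below 0, which held for 56.1% of all genes. At an unadjusted p under 0.05 in limma, 2 were lower (7.49% of all genes were), both subunits of the iron store ferritin. The light chain gene Ftl1 had -2.25, -2.45, -2.11 and -1.98 on arrays 1 to 4 (mean -2.20 ± 0.20; unadjusted p = 0.000398, adjusted p = 0.161). The heavy chain gene Fth1 had -0.94, -1.68, -1.22 and -1.28 (mean -1.28 ± 0.30; adjusted p = 0.315). Both were lower on all arrays with little spread, while the iron importer gene Slc11a2 had mixed signs. Its arrays average different probes, and its fully measured probe had mixed signs too (0.54, -0.70, 0.76 and -0.61). The metallothionein genes Mt1 and Mt2 had -0.08 ± 0.57 and 0.61 ± 0.52.

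Outside these families the member with the smallest p was Slc44a1, which encodes a choline transporter of the plasma and mitochondrial membranes. Its values were -1.35, -1.93, -1.83 and -1.64 on arrays 1 to 4. They agreed in both dye orientations (-1.64 and -1.74), and the SD was the smallest among members with a mean of -1 or lower. The mean was -1.69 ± 0.26, 3.22-fold lower (limma, unadjusted p = 0.00177, adjusted p = 0.274). It had 2 probes, 1 of them with a value on array 3 only; the probe with all 4 arrays had a mean of -1.55.

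The Slc6 family, sodium- and chloride-coupled carriers of neurotransmitters, amino acids and osmolytes, had 9 measured genes. At an unadjusted p under 0.05 in limma, 3 were lower and 1 higher, against 7.49% and 4.05% of all genes. Slc6a9, a glycine transporter gene, had -0.80, -1.87, -1.81 and -1.72 (mean -1.55 ± 0.50, 2.93-fold lower; unadjusted p = 0.0041, adjusted p = 0.303). Arrays 2 to 4 agreed closely and array 1 lay nearer to 0. Slc6a6, which encodes the transporter of taurine, an osmolyte, was the highest of the family, with 1.14, 3.08, 0.62 and 0.64. It was above 0 throughout, with array 2 far above the rest (mean 1.37 ± 1.17, 2.59-fold higher; limma, unadjusted p = 0.0182, adjusted p = 0.382), and its mean was 0.89 without array 2. Slc6a21 had -0.95 ± 0.67 and the GABA transporter gene Slc6a11 -0.84 ± 0.90, the latter with 0.07 on array 2. The mean of Slc6a21 was -0.57 without array 2 (limma, unadjusted p = 0.228).

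The remaining families gave single genes. Slc22a21, a carnitine transporter gene, had -0.35, -0.64, -1.92 and -1.64 on arrays 1 to 4, lower in the Cy3 orientation (mean -1.13 ± 0.76; limma, unadjusted p = 0.00888, adjusted p = 0.338). Slc14a1, a urea transporter gene, had -1.69, -0.02, -2.06 and -1.27 (mean -1.26 ± 0.89; limma, adjusted p = 0.384). On arrays 1 and 4 its value averages 2 probes, on arrays 2 and 3 it rests on 1. Slc17a8, a vesicular glutamate transporter gene, had -0.78, -0.93, -0.54 and -0.58 (mean -0.71 ± 0.18, limma adjusted p = 0.43). Its unadjusted limma p was above 0.05 whichever array was left out (from 0.104 to 0.158). Slc35e1, of the nucleotide sugar transporter family, had 0.03, 0.77, 1.62 and 1.42 (mean 0.96 ± 0.72; limma, adjusted p = 0.382) and was the only member with Slc6a6 that was higher at an unadjusted p under 0.05. The sulphate cotransporter gene Slc13a1 had -0.56, -0.18, -3.36 and -0.32, all below 0 but with a mean of -1.11 ± 1.51 that was -0.34 without array 3 (limma, unadjusted p = 0.0965 with all arrays). All 5 measured genes of the Slc13 and Slc16 families had a mean below 0 (median -0.89), which held for 56.1% of all genes. Their medians on arrays 1 to 4 were -0.56, -0.23, -1.48 and -0.32, lowest on array 3. None had an unadjusted p under 0.05 in limma. The 12 measured genes of nucleotide sugars and sugar phosphates had a median of 0.0, with means from -0.65 to 0.96. The 8 organic ion and bile acid carriers had -0.05, from -1.13 to 0.66, and the 7 sugar and sodium-coupled carriers -0.22, from -0.74 to 1.09. The 4 vesicular and organic anion carriers had -0.39, from -1.12 to 0.33, and all 3 peptide carriers lay between 0.0 and 0.28.

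**Figure D4:**
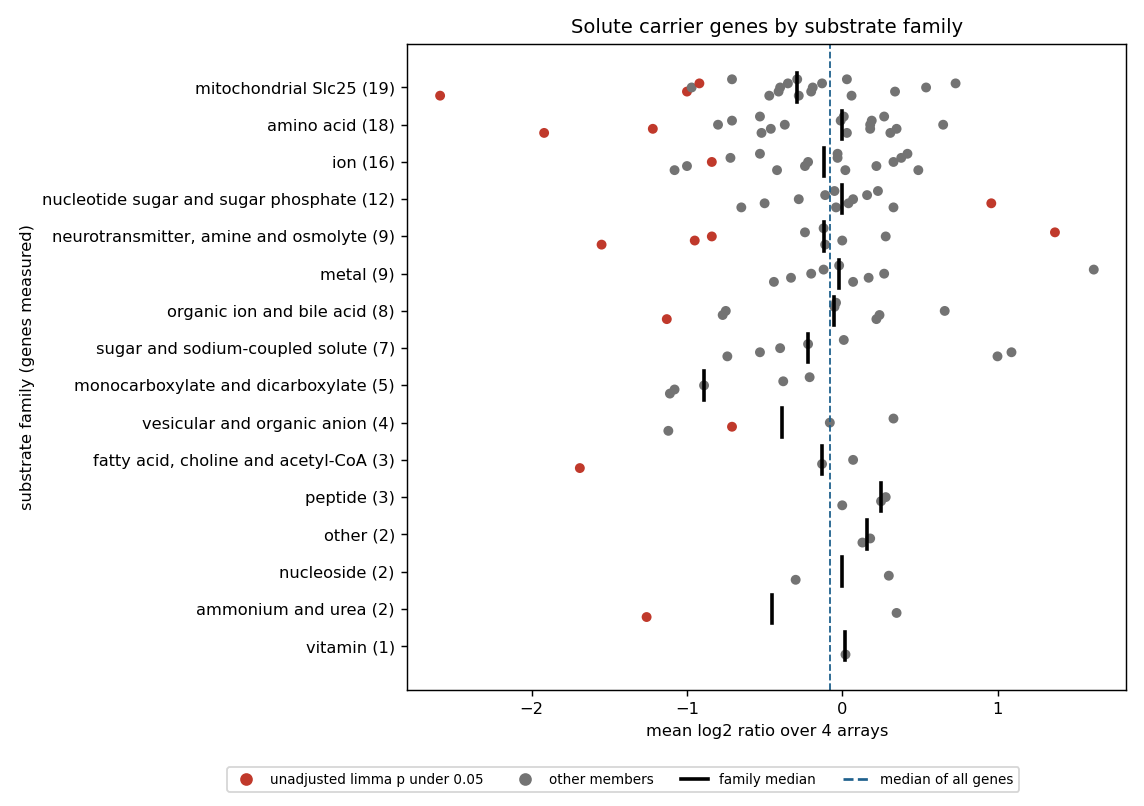
Mean log2 ratio over 4 arrays (horizontal axis) of each of the 120 measured solute carrier genes, by substrate family with the number of genes (vertical axis); black bars are family medians, the dashed line is the median of all genes (-0.082), and red points have an unadjusted limma p under 0.05. The Slc25 median (-0.29) lies below the line and the amino acid median (0.0) above it. On arrays 1 to 4 the Slc25 medians were -0.11, 0.06, -0.61 and -0.5, and those of all genes 0.1, -0.01, -0.14 and -0.16. The low Slc25 median thus came mostly from arrays 3 and 4. Points of every family with 7 or more genes fall on both sides of the line.

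Agreement between arrays was weak for these genes. Over the 120 members, which are not independent replicates, Pearson's r of 2 arrays ran from -0.01 (arrays 2 and 4) to 0.32 (arrays 1 and 3), and over all genes from 0.12 to 0.2. The median SD of a member over the arrays was 0.68, near that of all genes (0.7). In the rows that needed no move the 42 members had a median of -0.236, and 7 had an unadjusted p under 0.05 in limma; in the moved rows the 65 members had -0.047, and 8 had such a p. With only the first 6000 rows read, all genes had a median of -0.173 and 12.3% at such a p, against -0.195 and 11.8% of 51 members. With only moved rows read, all genes had -0.051 and 11.6%, against -0.044 and 11.8% of 76 members. Genes with probes in both parts count in both of these readings. Of 12 members with exactly 2 probes measured on all 4 arrays, the means of both probes had the same sign in 5 (41.7%); over all genes this held for 565 of 969 (58.3%). The median distance between both probes was 0.54 for the members and 0.45 for all genes.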

How the data were processed

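The authors deposited 1 value per spot and array for 20355 spots, which are log2 ratios plus a constant per array; image analysis, background correction and any normalization are unknown here. That these are log2 units follows from steps of 1 between the most frequent values within an array, and values 16.61 from the most frequent were taken as capped ratios and dropped (beyond 15 either way). Rows 1 to 6000 were used as they stand; arrays 2 to 4 were read 3 rows higher for rows 8001 to 18000 and 4 rows higher from row 18301, where the mean r with array 1 was 0.085 and 0.134, against -0.004 and -0.009 without the move. Other rows (2300) were dropped. Platform annotation gave 1 symbol for 14030 probes; all 198 members matched RefSeq by gene identifier with unchanged symbols.

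Probes of a gene were averaged per array, and genes with a value on all 4 arrays were fitted with limma 3.58.1 (R 4.3.3; lmFit, eBayes), with a dye term and Benjamini-Hochberg adjustment over all genes; the script was tested on simulated data. Members with values in the text had an unadjusted p under 0.05, a mean of at least 1 in size with 1 sign on all arrays, the lowest or highest mean of the amino acid, ion, metal or Slc25 families, or 2 or more probes there. Others are said to be named after their values were seen. The members, lists and row offsets were chosen with earlier results of these data known. The number of arrays limits the precision. Alternatives changed the dye term, centring, spread, rows, capped values, probes, arrays and variance estimate. With 1 array left out, means are limma's estimates with the dye term, in which both dye orientations weigh equally.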

Additional observations from a re-analysis of the deposited data

Results flagged for a closer look

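The values of 44 named genes and of the members' median on the 4 arrays were checked for 1 array far from the other 3, by the gap to the nearest value over the whole range. Among these 45 values, 4 stood out, where chance gives about 1 in 20. The zinc transporter gene Slc30a6 lay at 4.48 on array 3 (gap over range 0.902). The sulphate cotransporter gene Slc13a1 lay at -3.36 on array 3 (0.88), and the exchanger gene Slc9a8 at -4.03 on array 3 (0.864). The glycine transporter gene Slc6a9 lay at -0.80 on array 1 (0.862). Array 3 was the distant array in 3 of the 4, and many of the genes had been picked for large means, so the count cannot be set against chance.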

How the results depend on the processing

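Limma called 0 members under each of 15 other settings. Over all genes it called 0 as reported, 6 when the dye was not modelled, 6 probes of 4 genes with probes kept separate, 3 with arrays scaled to a common spread and 2 with only probes measured on all 4 arrays, an alternative chosen after the data were seen. Members at an unadjusted p under 0.05, 15 as reported, were counted anew under each setting and need not be the same genes. The count was 6 of 51 in the first 6000 rows (11.8%, against 12.3% of all genes) and 9 of 76 in moved rows (11.8%, against 11.6%). With all rows as deposited it was 9 of 134 (6.72%, against 8.23%). The members' share thus lay below that of all genes in the first and last of these. Without 1 array the count was 7 to 24. Members with 1 sign, 26 as reported, were counted in the same way. They numbered 11 in the first 6000 rows and 17 in moved rows, which hold fewer genes. Without 1 array, where fewer arrays must agree, they numbered 36 to 46, and elsewhere 26 to 38. The members' median stayed between -0.195 and -0.044. Of the 15 genes, 14 kept such a p without the dye term, 11 after centring, 7 without array 2 or array 3, and 4 of 13 with all rows as deposited.

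Over the 44 named genes, 34 of 590 values had the other sign, in 16 genes. Beyond what each setting changes, the cause was not tested. With all rows as deposited, the lower rows were not moved, and their mean r with array 1 was -0.004 and -0.009. The other sign was seen there for Slc17a8 (0.14), Slc1a4 (-0.55), Slc24a3 (-0.30), Slc25a23 (0.23), Slc25a44 (0.06), Slc7a6 (-0.37) and Slc8a2 (0.42). Each of these has a probe in the moved rows, so this setting pairs other spots for them. Centring gave Slc3a1 0.05 and Slc8a2 0.03, and scaling 0.03 and 0.06. Fully measured probes gave Slc11a2 -0.0, Slc25a35 -0.31, Slc36a1 0.09, Slc3a1 0.61 and Slc8a2 0.84, and moved rows Slc11a2 -0.04 and Slc25a35 -0.31. With 1 array left out, the values are limma's estimates, which weigh both dye orientations equally. Their signs can differ from those of the plain means of the arrays left. Without 1 array at a time, Slc11a2 ran from -0.01 to 0.55, Slc24a3 from -0.12 to 0.88, Slc25a3 from -0.03 to 1.49, Slc25a35 from -0.23 to 0.30, Slc25a44 from -0.67 to 0.27 and Slc25a51 from -0.58 to 0.02. Likewise Slc36a2 ran from -0.49 to 1.79, Slc39a10 from -0.77 to 0.38, Slc3a1 from -0.23 to 0.22, Slc7a6 from -0.12 to 0.19, Slc8a2 from -0.70 to 0.64 and Slc9a8 from -1.59 to 0.53. Each array's ratio already pairs both lines, so no separate block was fitted. Very low signal touched 17 of 627 member values (2.71%, all genes 2.73%), which were ratios of whole numbers up to 4.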

Other observations

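Other transport genes were listed with earlier results of these data known. The 16 measured genes of the ATP-binding cassette (ABC) superfamily had a median of -0.02. Most encode ATP-driven membrane transporters, but Abce1, Abcf1, Abcf2 and Abcf3 encode soluble proteins that act at ribosomes and are no transporters. Of the 16, 8 had a mean below 0, which held for 56.1% of all genes. In limma 0 had an unadjusted p under 0.05, against 11.5% of all genes. Abcc5 was below 0 on all 4 arrays (-0.86 ± 0.59), and Abcb9 (0.18) and Abca3 (0.27) were above 0 on all 4. The 8 measured genes of mitochondrial pores and protein import had a median of 0.22, with 0 at such a p in limma; Vdac1, Vdac2 and Vdac3, the outer membrane channels, had 0.31 ± 0.49, -0.21 ± 0.43 and 0.07 ± 0.11.

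Of 4 measured ion pump genes, Atp1b3, a subunit of the sodium-potassium pump, had 0.33, 1.18, 1.0 and 1.13 on arrays 1 to 4 (mean 0.91 ± 0.39; limma, unadjusted p = 0.0281, adjusted p = 0.395). Atp6v1h, a subunit of the vacuolar proton pump, had 0.70 ± 0.39. Of 12 measured genes of carrier partners and amino acid sensing, Bsg, the chaperone of Slc16 monocarboxylate carriers, had -0.86, -1.12, -0.83 and -0.48 (mean -0.82 ± 0.26; limma, adjusted p = 0.403). Cd44, which can stabilise a cystine carrier at the membrane, had 0.49, 1.32, 1.52 and 2.15 (mean 1.37 ± 0.68; limma, adjusted p = 0.315). Lamtor3, a lysosomal scaffold gene, had signs that followed the dye, at -0.48 and -0.28 on arrays 1 and 2 and 1.70 and 3.65 on arrays 3 and 4.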
